A study of Saccharomyces cerevisiae with 219 samples.

Results

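Glutamate, glutamine, alanine and serine carry much of the nitrogen that yeast cells move between metabolites, and 8 enzymes at these points were followed here: the NADPH-dependent glutamate dehydrogenases GDH1 and GDH3, the NAD-dependent glutamate dehydrogenase GDH2, the glutamate synthase GLT1, the glutamine synthetase GLN1, the alanine transaminases ALT1 and ALT2, and the serine and threonine deaminase CHA1. The 8 genes were taken by symbol from a named list, out of 5710 annotated genes on one array design and 5691 on the other, and each had 1 probe on each design. All 8 members were chosen by name with earlier results on these arrays in view. Their p-values therefore do not rest on a choice blind to these data. In particular, the values of ALT2, CHA1, GDH1 and GDH3 at 0.5 h and at 5 to 8 h of menadione against the unstressed arrays had been seen, so for these 4 genes every comparison that uses the menadione arrays of the hours course is given below as a description with its standard error and no p-value.

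RNA of Saccharomyces cerevisiae was hybridised to 219 two-colour oligonucleotide arrays, each sample against 1 common reference made of equal parts stationary phase and exponential RNA. Cells of an S288c strain of mating type α, auxotrophic through ura3-52, trp1, lys2, his3 and a double leu2 allele, were grown for 7 days in YPD+A, the usual way of obtaining stationary phase cultures, and were then exposed to 50 µM menadione, a quinone that generates superoxide, or shifted to a higher temperature. No other agent was added, the treated and the T0 cells shared strain and medium, and menadione was given without a new carbon source. Menadione was followed every 0.5 h to 8 h in 2 series (32 arrays and 6 T0 arrays, called the hours course). It was also followed every min to 35 min and at 60 min in 2 series (72 arrays and 6 T0 arrays, the minutes course). A further set covered 5 min in 1 series (19 arrays and 6 T0 arrays, the seconds course). The temperature upshift was followed every 30 min to 480 min in 2 series (32 arrays), with no T0 arrays of its own. The titles of these courses give times and no treatment. For the hours, minutes and upshift courses it was taken from the design text of the series and the published methods. Minutes and upshift arrays were told apart by a closing dot in the titles. The published methods describe no menadione course sampled in seconds, so the treatment of the seconds course is not established here. Cell-free lysates of stationary phase or exponential (overnight) cultures were divided and kept on ice with trypsin, proteinase K or Qiagen protease or in buffer, in 14 groups of 2 arrays. The groups at 2 min came from cells given menadione for 2 min. The 12 arrays on an RNA polymerase II mutant and its controls and the 6 arrays on RNA isolation methods entered no comparison.

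All values are log2 ratios of sample to reference, centred on the median gene of their array, so 0 means the position of the median gene and 1 unit is a 2-fold difference. A ratio to a reference gives no ranking between genes: it says how one gene differed between samples. Between 2308 and 5489 genes had a value on an array of the courses and 2542 to 5180 on an array of the lysates. Spot intensities were not analysed here, so how near a low ratio lies to background is not known, and arrays with no usable value for a gene are counted out beside it.

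Several arrays were not independent. Each of the 6 T0 arrays of the minutes course correlated with 1 T0 array of the hours course at r = 0.977 to 0.981 over 3293 to 4651 genes. Replicates 4 and 5 of T0 in the seconds course held the values of the 2 S288c arrays at 0 min of the polymerase set (99.7% and 99.6% of genes within 0.01 after a shift), and they correlated with the other 4 T0 arrays of that course at 0.032 to 0.081. The S288c arrays at 2 and 30 min of that set were the same as 2 arrays of the minutes course. The T0 arrays of the minutes course were on the array design of the hours course and its treated arrays on the other, so treatment and design cannot be told apart there. The labels do not say from how many cultures the series came. P-values therefore measure the spread between these arrays and series only. In the course fits T0 arrays entered singly, and treated arrays as means of a series and window. Standard errors between treated windows thus also drew on the spread between single T0 arrays, in the minutes course on the other design. A comparison that did not pass therefore does not show that nothing changed.

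Glutamine and glutamate synthesis. Glutamate is made from ammonium and 2-oxoglutarate by Gdh1 and Gdh3, or from glutamine by glutamate synthase, and glutamine from glutamate by Gln1. In the hours course the genes of the ammonium-assimilating enzymes GLN1, GDH1 and GDH3 were low at 5 to 8 h, and GLT1 was not.

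GLN1 lay at -2.31 to -1.68 on the 6 T0 arrays (mean -2.0 ± 0.21, SD). It lay at -2.19 to -0.54 on the 8 arrays from 0.5 to 2 h (median -1.58) and at -6.06 to -4.46 on the 14 arrays from 5 to 8 h (median -5.28). The late arrays all lay below every T0 and every early array. The step fell between 2 and 2.5 h, where GLN1 went from -1.55 to -4.40 in series 1 and from -0.54 to -3.07 in series 2. At 3 h it stood higher again, at -3.01 and -2.24, at 3.5 h it was -3.04 and -1.95, and at 4 h it was -5.25 and -4.12. Upshift series 2 went from -0.60 at 120 min to -2.95 at 150 min, where series 1 had no value, and the upshift series stood at -2.13 and -2.18 at 180 min and at -0.84 and -0.62 at 210 min. A fall after 2 h and a partial return before 4 h were thus seen in both courses. With menadione the return was present at 3 h, and series 1 was no higher at 3.5 h. After the upshift the values at 210 min were above those at 180 min. After the upshift GLN1 went from -1.51 to 0.17 at 30 to 120 min (8 arrays, median -0.82) to -4.16 to -2.18 at 300 to 480 min (13 arrays with a value, median -3.28). GLN1 fell in both courses, to a lower level with menadione.

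Between the late and the early window GLN1 fell by 3.74 ± 0.32 (log2 difference ± standard error, limma, adjusted p = 2.3e-06) in the hours course and by 2.40 ± 0.32 (adjusted p = 0.00276) in the upshift course. At 0.5 to 2 h the courses differed by -0.67 ± 0.32 (menadione minus upshift, adjusted p = 0.126, and -1.18, adjusted p = 0.022, after quantile normalization, but -0.09 without centring), and at 5 to 8 h by -2.01 ± 0.32 (adjusted p = 0.000246). The difference between the falls was -1.34 ± 0.45 (adjusted p = 0.0985), which did not pass. With 1 upshift series left out the upshift fall was 2.08 to 2.71, but no gene of the whole table was called (adjusted p of GLN1 0.159 without series 1 and 0.582 without series 2). The late difference between courses was -0.93 (adjusted p = 0.424) when arrays were not centred.

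GDH1, the NADPH-dependent dehydrogenase of growth on glucose, was high at T0 (1.07 to 1.88, mean 1.49 ± 0.30, n = 6). It lay at -0.55 to -0.01 from 0.5 to 2 h (8 arrays, median -0.13) and at -3.51 to -1.01 from 5 to 8 h (14 arrays, median -2.35). These 3 ranges did not overlap. The series parted at 4 h, where series 1 was at -2.42 and series 2 at -0.71, and late means were -2.92 in series 1 and -1.52 in series 2. Late minus early was -2.0 ± 0.43, and -1.33 with series 1 left out. After the upshift GDH1 was between -0.23 and 1.58 early (median 0.86) and between -0.49 and 0.97 late (median 0.11), a difference of -0.57 ± 0.43 (limma, adjusted p = 0.967). Menadione and upshift values overlapped at 0.5 to 2 h (difference -0.95 ± 0.43, and -0.37 without centring) and no longer at 5 to 8 h (-2.38 ± 0.43, and -1.37 without centring).

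GDH3, the paralog of GDH1 that is known for its use when glucose is gone, started at 1.07 to 1.58 on the T0 arrays (mean 1.39 ± 0.23). With menadione it was at -1.01 to 0.18 early (median -0.50) and at -2.59 to -1.58 late (median -2.17), with late means of -2.16 and -2.14 in the 2 series. With the upshift it was at 1.12 to 2.04 early (median 1.68), within or above the T0 range on all 8 arrays, and at -1.41 to 0.67 late (median -0.45). GDH3 fell during the upshift by 2.12 ± 0.31 (limma, adjusted p = 0.00479). That call was lost without either series (-2.23, adjusted p = 0.306, and -2.0, adjusted p = 0.582) and without centring (adjusted p = 0.922). Menadione minus upshift was -2.21 ± 0.31 early and -1.72 ± 0.31 late, and the centred ranges overlapped in neither window. Without centring the late difference was -0.71.

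GLT1, which encodes glutamate synthase, stayed near the median gene throughout. Its T0 arrays ran from -0.41 to 1.03, the menadione windows from -1.14 to 1.27 and the upshift windows from -1.02 to 1.51. Late minus early was -0.22 ± 0.50 with menadione (adjusted p = 0.86) and 0.38 ± 0.50 with the upshift (adjusted p = 0.999). Between courses the differences were -0.05 ± 0.50 early (adjusted p = 0.949) and -0.65 ± 0.50 late (adjusted p = 0.374). No difference of GLT1 passed, and each has a standard error of 0.50.

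**Figure D1:**
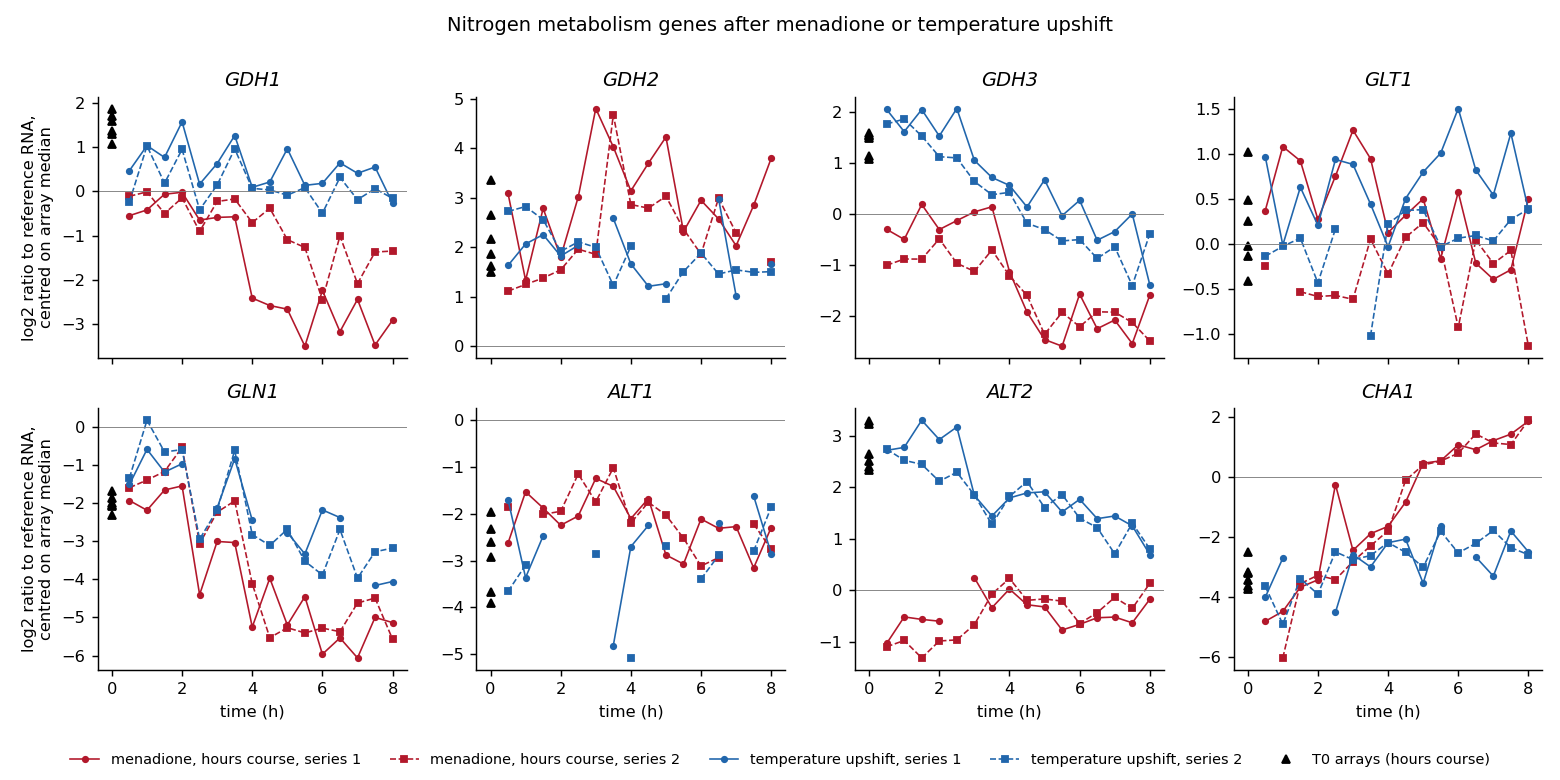
Each panel plots 1 gene: the centred log2 ratio to the reference RNA (vertical axis) against time in hours, in red for the 2 menadione series of the hours course, in blue for the 2 upshift series and as black triangles for the 6 T0 arrays. CHA1 crosses 0 at 5 h in both menadione series, GLN1 falls after 2 h in both courses, and ALT2 is below its T0 range from the first menadione array on.

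Glutamate breakdown and the transaminases. Gdh2 releases ammonium from glutamate when amino acids serve as the nitrogen source. GDH2 was above the median gene on every array of these courses that measured it. It ran from 1.49 to 3.36 at T0, from 1.11 to 3.09 at 0.5 to 2 h and from 1.70 to 4.23 at 5 to 8 h (13 of 14 arrays), with its highest values in between, 4.81 at 3 h in series 1 and 4.68 at 3.5 h in series 2. After the upshift it ran from 1.63 to 2.82 early and from 0.96 to 2.99 late (11 of 14 arrays). Its ranges overlapped in all of these windows. Late minus early was 0.88 ± 0.54 with menadione (limma, adjusted p = 0.351) and -0.62 ± 0.54 with the upshift (adjusted p = 0.999). Menadione minus upshift was -0.44 ± 0.54 early (adjusted p = 0.575) and 1.06 ± 0.54 late (adjusted p = 0.161).

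ALT1 and ALT2 are alanine transaminase paralogs. Alt1 is the enzyme with known activity, and for Alt2 an enzyme activity has been disputed. ALT2 lay at 2.33 to 3.29 on the T0 arrays (mean 2.74 ± 0.42, n = 6). At 0.5 h of menadione it was at -1.03 and -1.09 in the 2 series, and it stayed between -1.31 and 0.25 to 8 h on all 31 menadione arrays that measured it. Window means were -0.88 early and -0.38 late, 12.3-fold and 8.70-fold below the mean of the T0 arrays. After the upshift ALT2 was at 2.12 to 3.30 early (median 2.73), overlapping the T0 arrays, and at 0.70 to 1.92 late (median 1.40). The 2 upshift windows did not overlap, and their difference was -1.34 ± 0.35 (limma, adjusted p = 0.0991), which did not pass. Menadione and upshift arrays did not overlap in either window, by -3.58 ± 0.35 early and -1.74 ± 0.35 late, the latter -0.73 without centring. The change from early to late also differed between the courses, by 1.84 ± 0.49. That comparison of changes called 7.28% of 3284 genes, 1.98% higher and 5.3% lower, with ALT2 and CHA1 the 2 members among those higher, from which nothing is read since menadione arrays had entered their choice.

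ALT1 was measured on 54 of the 70 arrays of the 2 courses and so was not tested there. It lay at -3.91 to -1.95 at T0, at -2.62 to -1.53 early (7 of 8 arrays) and at -3.15 to -2.03 late (13 of 14 arrays) with menadione. In the upshift course it was read on 18 of 32 arrays, between -5.08 and -1.62. ALT1 was thus below the median gene on every array that gave a value, and the T0, early and late ranges of both courses overlapped.

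The paralogs were set against each other on each array. GDH1 minus GDH3 was -0.12 to 0.33 at T0 (mean 0.10 ± 0.16, n = 6) on the hours course arrays, and on the 4 seconds course T0 arrays that held no values of another set, on the other design, it was -1.42 to -0.72. In the hours course it had a mean of 0.30 ± 0.44 early and -0.07 ± 0.87 late with menadione, above 0 on 6 of 8 and on 5 of 14 arrays. After the upshift it was -0.96 ± 0.71 early (above 0 on 1 of 8 arrays) and 0.59 ± 0.49 late (above 0 on 13 of 14 arrays). ALT1 minus ALT2 was -7.20 to -4.28 at T0, -1.65 to -0.70 early and -2.89 to -1.45 late with menadione, and stayed at -6.40 to -4.42 early and -4.79 to -2.66 late with the upshift. These differences of log2 ratios say how the distance between paralogs shifted between samples. Sequences of the probes were not analysed here, so signal shared between near-identical paralogs is not known.

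**Figure D2:**
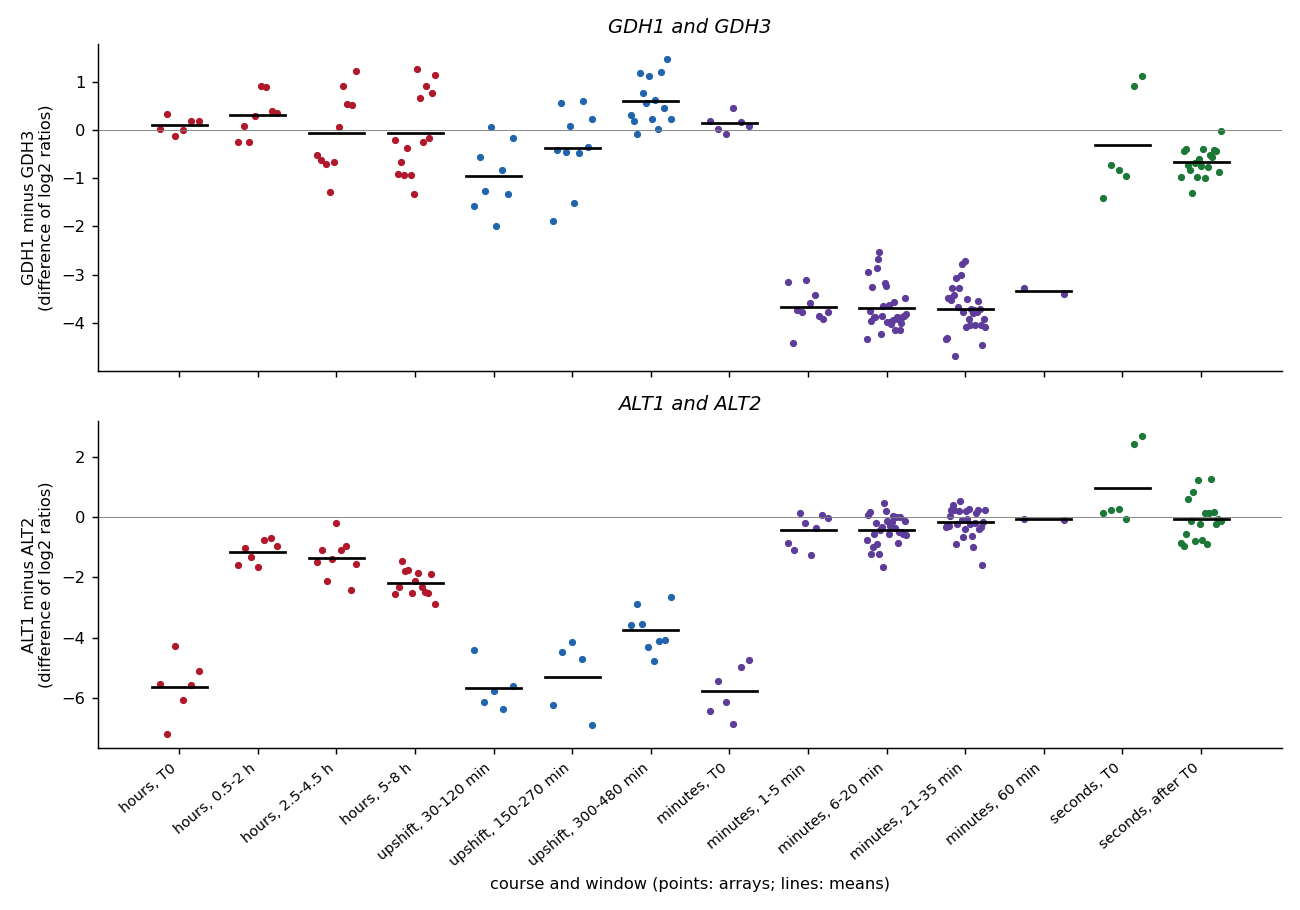
The vertical axis is the difference of the 2 centred log2 ratios on an array, GDH1 minus GDH3 above and ALT1 minus ALT2 below, for each course and window (points are arrays, lines are means). GDH1 minus GDH3 is near 0 on the T0 arrays of the hours and minutes courses. It is between -4.68 and -2.52 on all treated arrays of the minutes course, which are on another array design than their T0 arrays. On that other design the seconds course T0 arrays without replicates 4 and 5 stand at -1.42 to -0.72.

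Serine and threonine deamination. Cha1 releases ammonium from serine and threonine, and its gene is known for induction by these amino acids. CHA1 lay at -3.73 to -2.51 at T0 (mean -3.28 ± 0.44) and at -6.02 to -3.27 from 0.5 to 2 h (7 of 8 arrays, median -3.67). At 2.5 h series 1 read -0.26 and series 2 -3.42, and at 3 h they read -2.45 and -2.82. At 4 h CHA1 stood at -1.65 and -1.79 in the 2 series, at 5 h at 0.45 and 0.39, and at 8 h at 1.85 and 1.88. All 14 arrays from 5 to 8 h lay between 0.39 and 1.88, above every earlier array of the course. The window mean was 1.04, 20.1-fold above the mean of the T0 arrays, and late minus early was 5.23 ± 0.38. After the upshift CHA1 stayed low, at -4.90 to -2.71 early (6 of 8 arrays) and at -3.54 to -1.63 late (13 of 14 arrays), a difference of 1.21 ± 0.38 that did not pass (limma, adjusted p = 0.228). Menadione minus upshift was -0.53 ± 0.38 early and 3.49 ± 0.38 late, the early value being -1.60 after quantile normalization and -0.08 without centring, and the change from early to late differed by 4.03 ± 0.54. The late arrays of the 2 courses did not overlap.

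**Figure D3:**
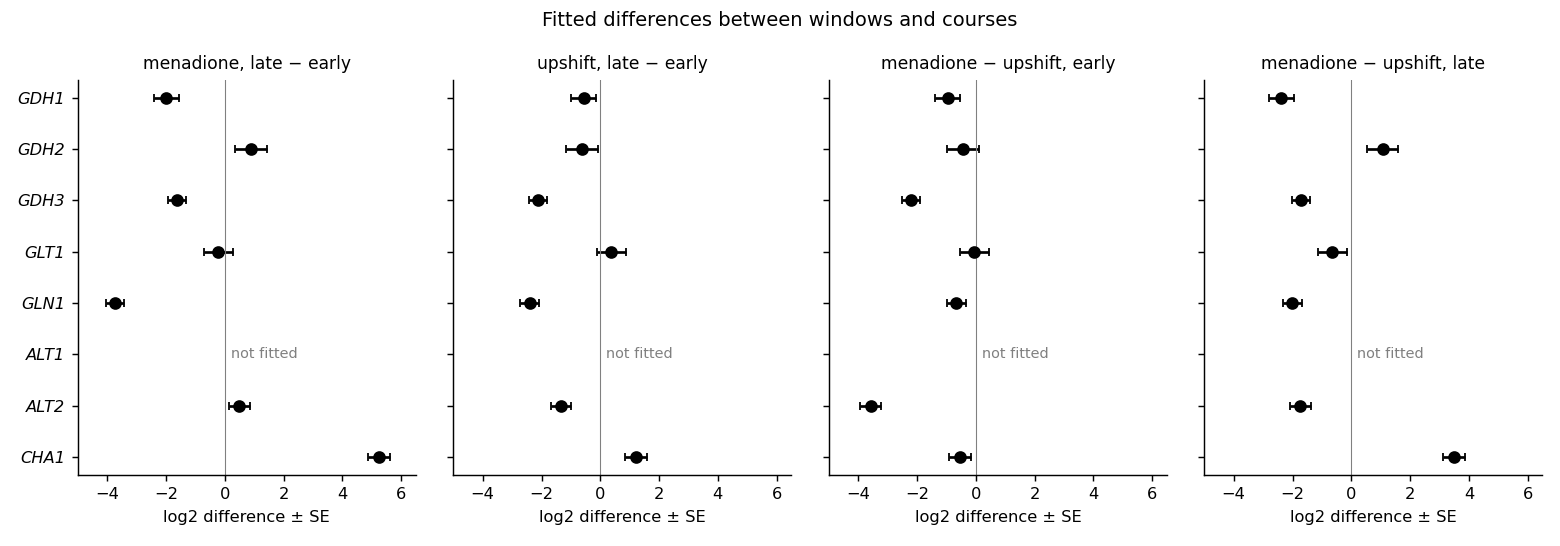
Points are fitted log2 differences and bars their standard errors, for late minus early in each course and for menadione minus upshift in each window (early is 0.5 to 2 h, late is 5 to 8 h). CHA1 has the highest difference with menadione (5.23) and GLN1 the lowest (-3.74), ALT2 is the lowest in the early comparison of courses (-3.58), and ALT1 was measured on too few arrays.

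Against this background, 490 of 3285 genes (14.9%) were called between the late and the early menadione window, 10.6% lower and 4.32% higher, where a call needs an adjusted p under 0.05 and at least 2-fold. Of the 7 members tested 3 were called lower and 1 higher, a count that includes the genes chosen with these arrays in view and from which nothing is read. In the upshift course 32 of 3284 genes (0.974%) were called, 26 of them lower (0.792%), and of the 7 members tested GLN1 and GDH3 were among the lower. Between courses 28.6% of genes were called early and 26.4% late, with 13.8% higher and 14.8% lower early and 8.5% higher and 17.9% lower late. Of the 7 members tested 2 were called lower early, and 4 lower and 1 higher late. GLN1 was the only called member there other than ALT2, CHA1, GDH1 and GDH3, whose menadione values had been seen. It too was listed with earlier results on these arrays in view. The split of calls moved with scaling. Without centring the median over all genes shifted to 0.64 early and 0.757 late between courses, to -2.26 between lysate cultures and to 1.37 for protease in stationary phase, so changes are read relative to the median gene. The small differences of GLT1 (0.61 early and 0.36 late) and of GDH2 early (0.14) between courses turned sign with it, and GDH2 late was 1.93 (adjusted p = 0.0742, limma). Late against early menadione gave 15 higher and 83 lower without centring, and 124 and 183 after quantile normalization, against 142 and 348. The upshift gave 0 higher and 8 lower after quantile normalization against 6 and 26. Menadione against upshift gave 333 higher and 84 lower early and 346 and 52 late without centring, against 452 and 486, and 279 and 589. After quantile normalization the early split was 309 higher and 516 lower.

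Markers of the growth state were read in the same comparisons. The stationary phase list was HSP12, HSP26, SPG1, SPG4, GRE1, SSA3, SNZ1 and SNO1. The growth list was RPL3, RPL10, RPS3, RPP0, TEF2, EFB1, RPA190 and RNR2. The stationary phase list holds heat shock genes such as HSP26, so against a temperature upshift it is not read as growth state alone. Between late and early menadione 5 of 7 stationary phase markers tested were called higher (median 2.59) and 6 of 8 growth markers lower (median -2.09). Over all genes the shares were 4.32% higher and 10.6% lower. At 0.5 to 2 h all 7 stationary phase markers tested were called lower with menadione than with the upshift (median -4.38). Of the 8 growth markers 4 were higher (median 0.93). Over all genes 14.8% were called lower and 13.8% higher there. At 5 to 8 h 5 of 7 stationary phase markers were lower (median -1.93). Of the growth markers 1 was higher and 3 lower (median -0.79), where all genes gave 17.9% lower and 8.5% higher. From early to late upshift 1 of 7 stationary phase markers was called lower (median -0.63) and none of 8 growth markers was called (median -0.32). Of all genes 0.792% were called lower there. The part of these shifts in the values of the 8 genes was not tested.

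Genes around the 8 enzymes, from lists chosen with earlier results known, were read in the same fit. Each gene named from these lists was the called gene with the largest difference in its list. Its adjusted p-value therefore describes a picked gene and is no independent test. Over all genes, 10.6% were called lower and 4.32% higher between late and early menadione, and 17.9% and 8.5% between courses late. Of 12 genes on the route through 2-oxoglutarate, from the citrate synthases to the 2-oxoglutarate dehydrogenase complex and including peroxisomal and cytosolic isozymes, 4 were called lower and 1 higher between late and early menadione (median -0.83, against -0.11 over all genes tested). The citrate synthase gene CIT1 had the largest change among them, -2.0 ± 0.23 (limma, adjusted p = 1.86e-05). At 5 to 8 h 7 of the 12 were lower and 2 higher with menadione than with the upshift (median -1.15, against -0.21), CIT1 again leading with -2.51 ± 0.23 (adjusted p = 1.53e-06). Of the uptake genes 3 of 6 tested were called lower from early to late menadione (median -0.94), led by the ammonium permease gene MEP1 (-1.99 ± 0.43, adjusted p = 0.00471).

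Of 7 aspartate, asparagine and branched-chain transamination genes 1 was lower, the asparagine synthetase gene ASN1 (-2.37 ± 0.45, limma, adjusted p = 0.00166). Of 11 tested serine, glycine and threonine genes 1 was lower, SHM2 of serine hydroxymethylation (-1.27 ± 0.40, adjusted p = 0.0407). Of 4 tested regulators GCN4, the activator of amino acid synthesis genes, was lower (-1.88 ± 0.28, limma, adjusted p = 0.000183). The median of the 4 was -0.13, against -0.11 over all genes tested. In proline and arginine catabolism 2 of 5 genes were called higher and none lower (median 1.02). The proline oxidase gene PUT1 led with 2.07 ± 0.26 (limma, adjusted p = 4.06e-05). Over all genes 10.6% were called lower and 4.32% higher, and nothing is read from 1 called gene of a short list. Neither of the 2 tested genes of the GABA shunt was called. In the upshift course 1 gene of all 7 lists was called, the mitochondrial citrate synthase isozyme gene CIT3 (-1.92 ± 0.33, limma, adjusted p = 0.0155). Of all genes 0.974% were called there.

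At 0.5 to 2 h the leading called genes of the lists between menadione and upshift were IDP3 of peroxisomal NADPH supply (-3.35 ± 0.29, limma, adjusted p = 6.38e-07), PUT1 (-2.65 ± 0.26, adjusted p = 2.56e-06), the glutamate and aspartate permease gene DIP5 (-2.67 ± 0.66, adjusted p = 0.00636), the threonine aldolase gene GLY1 (2.41 ± 0.64, adjusted p = 0.00992) and ASN2 (-1.19 ± 0.33, adjusted p = 0.0126). At 5 to 8 h GCN4 (-1.82 ± 0.28, limma, adjusted p = 0.00017), the glutamine permease gene GNP1 (-2.13 ± 0.39, adjusted p = 0.000742), the threonine deaminase gene ILV1 (-2.49 ± 0.51, adjusted p = 0.00167) and ASN2 (-1.79 ± 0.33, adjusted p = 0.000745) led their lists, all lower with menadione. In that order their lists had 1 of 4, 2 of 6, 4 of 11 and 3 of 7 tested genes lower, and the list of ILV1 also had 1 higher. Over all genes 17.9% were called lower and 8.5% higher.

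Likeness over the 70 arrays of the 2 courses was read as Pearson's r with each of 3285 genes, as a description without a test, since the arrays are successive times that share series. GDH3 followed the glycolytic genes CDC19 (r = 0.932) and TDH2 (0.928) and YGR201C (0.917). ALT2 followed SPG5 (0.940), SPS19 (0.934) and SNZ1 (0.920). GDH1 and GLN1 shared their nearest gene, the hexose transporter HXT2 (0.882 and 0.876), followed by PIR3 (0.852) and PTR2 (0.847) for GDH1 and by FCY2 (0.854) and SEC59 (0.828) for GLN1. CHA1 was nearest to the aromatic aminotransferase gene ARO9 (0.823), UMP1 (0.782) and the proteasome subunit gene RPN12 (0.778). GLT1 (CNE1 0.765, SOL2 0.735, MNR2 0.714), ALT1 (TYW1 0.703, THS1 0.682, HMF1 0.679) and GDH2 (GOR1 0.675, MRPL22 0.645, PXA2 0.640) had lower values. Among the 8 genes r was 0.816 between GDH1 and GDH3 over 70 arrays, -0.435 between ALT1 and ALT2 over 53, and -0.866 between GLN1 and CHA1 over 63.

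The first hour of menadione. The minutes course asks how soon levels move. Within its treated arrays the 8 genes lay level. From 1 to 5 min the means were -1.50 for GDH1, 2.18 for GDH3, 1.53 for GDH2, 0.34 for GLT1, -1.61 for GLN1, -1.61 for ALT1, -1.19 for ALT2 and -0.93 for CHA1, and from 21 to 35 min they were -1.50, 2.21, 1.17, 0.06, -1.37, -1.69, -1.54 and -0.91 in that order. The differences of the later window ran from -0.36 ± 0.54 for GDH2 to 0.23 ± 0.40 for GLN1, and none passed (limma, adjusted p = 1 for each). At 60 min, with 1 array in each series, they ran from -0.64 ± 0.54 for GDH2 to 0.64 ± 0.34 for GDH1 (adjusted p = 0.973 and 0.938). No gene of the table was called in either comparison (0% of 3895 and 0% of 3888). At an unadjusted p under 0.05 there were 11 and 208 genes, and none of the 8 members was among them.

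Set against the T0 arrays on the other design, ALT2 was 14.3-fold lower at 1 to 5 min (2.13 to 3.20 at T0, -1.83 to -0.36 after), GDH1 8.19-fold lower (1.04 to 2.02 against -2.19 to -0.98) and CHA1 4.64-fold higher (-3.65 to -2.48 against -1.53 to -0.02). GDH3 was 1.71-fold higher, while at 0.5 h in the hours course, on the design of its T0 arrays, it was below T0 (-0.31 and -1.01). CHA1 at 0.5 h there was at -4.81 in series 1 with no value in series 2. On the design of the treated minutes arrays, 4 T0 arrays of the seconds course held no values of another set. They read ALT2 at -2.0 to -1.07, CHA1 at -1.09 to -0.60 and GDH3 at 1.68 to 2.36, each overlapping the arrays at 1 to 5 min. GDH1 read 0.94 to 1.17 on them, above the arrays at 1 to 5 min. At 30 min of the minutes course GDH1 minus GDH3 lay among values of -4.68 to -2.72, and at 0.5 h of the hours course it was -0.24 in series 1 and 0.90 in series 2. Both T0 sets were on the hours course design, and against them GDH3 and CHA1 at 30 min of menadione went opposite ways in the 2 courses. The treated minutes arrays were on the other design, so their levels against T0 are not read further.

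In the seconds course, on 1 design throughout and with no treatment named in its titles, the range after T0 overlapped that of T0 for each of the 8 genes. GDH1 was at 0.40 to 1.03 on the 19 arrays after T0 (median 0.62). On the 4 T0 arrays that held no values of another set it was at 0.94 to 1.17, above most of the 19 arrays. GDH3 was at 0.69 to 1.90 (median 1.32) against 1.68 to 2.36, a mean difference of -0.69, so most of its arrays lay below these T0 arrays too. ALT1 was at -2.27 to -0.65 against -1.86 to -0.93, ALT2 at -2.55 to -0.67 (18 arrays) against -2.0 to -1.07, and CHA1 at -1.73 to -0.58 against -1.09 to -0.60. GLN1 (0.53 to 1.44 against 1.02 to 1.20), GDH2 (-1.44 to -0.10 against -0.71 to 0.22) and GLT1 (-1.42 to 0.22 against -0.94 to 0.24) overlapped with T0 as well. With T0 replicates 4 and 5 included the mean difference of GDH3 turned to 0.36, since those arrays read -1.25 and -0.99. No test was made here, with 1 series.

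**Figure D4:**
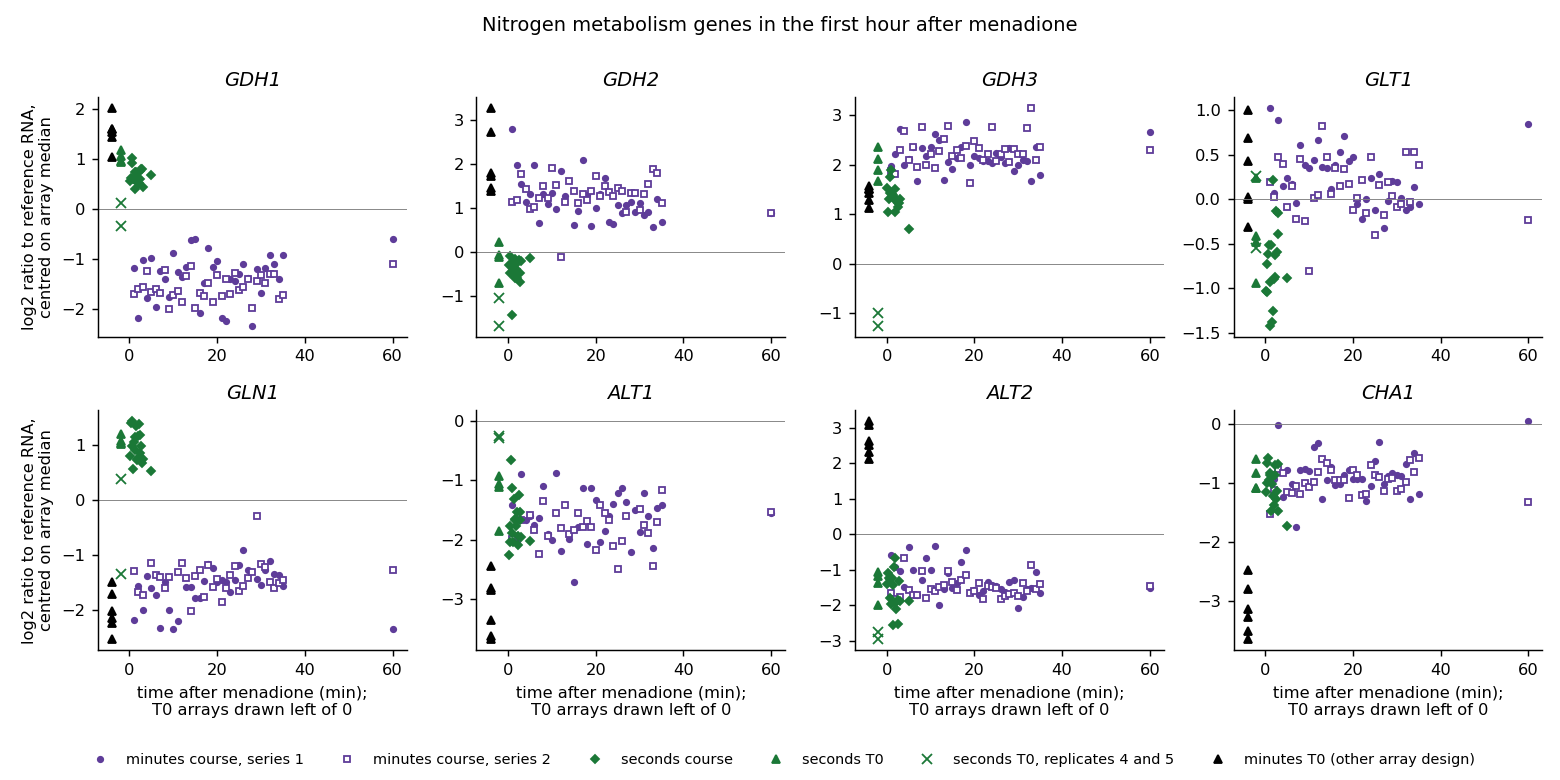
Centred log2 ratios against time in minutes: purple for the 2 menadione series of the minutes course, green diamonds for the seconds course, green triangles for its T0 arrays with crosses for replicates 4 and 5, and black triangles for the minutes T0 arrays on the other design (T0 arrays are drawn left of 0). The axis label names menadione, but the titles of the seconds course name no treatment. Treated arrays of the minutes course show no called change with time, and the T0 arrays of the minutes course stand apart from its treated arrays for GDH1, ALT2 and CHA1.

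The lysates. Protease treatment of a lysate asks which RNAs are recovered only after proteins are digested. Here some libraries went against their labels. On the 8 libraries labelled exponential in the trypsin and proteinase K groups the median of the stationary phase markers was -9.67 to -7.46 and that of the growth markers 2.38 to 3.56. On the libraries labelled stationary phase, trypsin, buffer these were 2.84 and 2.54, and -3.47 and -3.01, and the T0 arrays of the hours course gave 1.90 to 2.47 and -3.30 to -2.56. The library labelled stationary phase, proteinase K, buffer, replicate 2, and both labelled stationary phase, proteinase K, protease, had stationary phase medians of -8.85, -8.83 and -8.33 and growth medians of 3.71, 3.40 and 3.29. The 4 libraries labelled exponential, Qiagen protease had stationary phase medians of -2.23 and -2.25 in buffer and of 0.24 and 1.45 with protease. Their growth medians were 2.20 and 2.05 in buffer and 1.30 and -0.33 with protease, so the buffer libraries did not go against their label. Replicate 2 labelled stationary phase, Qiagen protease, protease had a stationary phase median of -2.14. In the 2 min trypsin groups replicate 1 had stationary phase medians of -2.69 and -2.42 and replicate 2 of 2.67 and 3.33. Replicates of the stationary phase groups correlated at 0.039 for proteinase K in buffer, and at 0.122 and 0.129 for Qiagen protease in buffer and with protease, against 0.769 and 0.795 for trypsin. The arrays of replicate 2 of the 2 min trypsin groups matched the 2 upshift arrays at 30 min (r = 0.991 and 0.994). No library was moved to another group. The trypsin lysates are therefore given first, and every comparison over 3 proteases with and without the other groups.

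In the trypsin lysates GDH3 read 3.02 and 2.49 in the buffer libraries labelled stationary phase and -5.43 and -5.12 in those labelled exponential. With protease it read -0.09 and -0.05, and -5.90 and -5.25. GDH2 read -0.68 and 2.16 in stationary phase buffer against -3.85 and -3.66 in exponential buffer. GDH1 had a value on 1 of the stationary phase buffer arrays, 1.11, against -1.10 and -1.02 in exponential buffer. GLN1 read -3.27 and -1.82 in stationary phase buffer, 0.14 and 0.08 with protease, and -2.75 and -2.69 in exponential buffer. ALT2 read 4.16 and 3.15 in stationary phase buffer, -0.45 and -0.11 with protease and -2.14 and -2.63 in exponential buffer, and ALT1 -3.51 and -2.57, -0.59 and -0.48, and 3.83 on 1 array. CHA1 read -2.94 and -2.64 against -1.17 and -1.19, with no value in the stationary phase protease libraries. The protease libraries of stationary phase thus stood near the median gene for GDH3, GLN1, ALT1 and ALT2.

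Fitted on these 8 arrays alone, stationary phase minus exponential in buffer was 8.02 for GDH3 (limma, adjusted p = 1.17e-05), 4.49 for GDH2 (adjusted p = 0.00356), -1.61 for CHA1 (adjusted p = 0.00867), 0.45 for GLT1 (adjusted p = 0.273) and 0.18 for GLN1 (adjusted p = 0.808), with 1562 of 2502 genes called. Protease minus buffer in stationary phase was -2.82 for GDH3 (adjusted p = 0.00245), 2.66 for GLN1 (adjusted p = 0.0141), -1.27 for GLT1 (adjusted p = 0.0216) and -2.15 for GDH2 (adjusted p = 0.0807), with 1048 of 2484 genes called. In exponential lysates no gene was called, and GLN1 differed by 0.91 (adjusted p = 0.569). GDH1, with 1 stationary phase buffer array, differed by 2.17 between cultures and by -1.57 with protease, and no test is given for it. This fit was chosen after the markers had been seen and rests on at most 2 arrays a group. On the stationary phase protease libraries the median of the stationary phase markers was 0.67 on both and that of the growth markers 0.10 and 0.12, so both marker lists stood nearer the median gene than in buffer, as GDH3, GLN1, ALT1 and ALT2 did. Their part in these values was not tested.

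Over the 3 proteases together, GDH3 was higher in stationary phase than in exponential buffer lysates by 3.94 ± 0.78 (limma, adjusted p = 0.00595) and GDH2 by 2.38 ± 0.74 (adjusted p = 0.0212). The share of all genes called higher was 19% and of all called 36.9% (890 of 2410 genes). Without centring GDH2 differed by 0.10 (adjusted p = 0.92) and GDH3 by 1.58 (adjusted p = 0.0349). Both calls were lost with the trypsin arrays left out (GDH3 1.90, adjusted p = 0.359, GDH2 1.33, adjusted p = 0.358), where 1 gene of the table remained called. GDH2 was also lost without the proteinase K arrays (2.74, adjusted p = 0.051), without the library labelled stationary phase, proteinase K, buffer, replicate 1 (1.87, adjusted p = 0.0772) and without that labelled stationary phase, trypsin, buffer, replicate 2 (1.91, adjusted p = 0.0547). GDH1 differed by -0.13 ± 0.48 (adjusted p = 0.842), GLT1 by 0.40 ± 0.32 (adjusted p = 0.321), GLN1 by 0.03 ± 0.48 (adjusted p = 0.968) and CHA1 by -1.34 ± 0.61 (adjusted p = 0.088). CHA1 was called without the library labelled stationary phase, proteinase K, buffer, replicate 2 (-1.98, adjusted p = 0.00635), and without centring (-3.70, adjusted p = 0.00265). Without centring GDH1 (-2.14, adjusted p = 0.0171), GLT1 (-1.96, adjusted p = 0.00661) and GLN1 (-2.33, adjusted p = 0.0123) also passed as lower, where the median of all genes was -2.26. ALT1 had values on 18 and ALT2 on 12 of 28 arrays, and neither was tested.

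Within the proteinase K groups GDH3 read 0.10 and -6.27 in the buffer libraries labelled stationary phase, -6.16 and -6.51 in their protease libraries, -5.67 and -6.50 in exponential buffer and -6.42 and -6.90 with protease. Within the Qiagen groups all 8 libraries lay between -0.29 and 1.02, whatever the label. GDH2 showed the same grouping, with -0.86 on the library labelled stationary phase, proteinase K, buffer, replicate 1 and -4.70 to -3.95 on the 7 other proteinase K libraries. GLT1 lay at -1.47 to -1.0 on those 7 and at -0.42 on that library. For GDH3 and GDH2 replicates 1 and 2 of the stationary phase, proteinase K, buffer group thus lay far apart.

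Protease against buffer gave no called gene over the 3 proteases, in stationary phase (0% of 2399 genes, 543 at an unadjusted p under 0.05) or in exponential lysates (0% of 2461, 72 at that p). In stationary phase GDH3 differed by -2.10 ± 0.78 (limma, adjusted p = 0.204), GDH2 by -1.67 ± 0.74 (adjusted p = 0.209), GLN1 by 0.94 ± 0.48 (adjusted p = 0.241), GLT1 by -0.50 ± 0.32 (adjusted p = 0.323) and GDH1 by 0.03 ± 0.48 (adjusted p = 0.974). Without centring GLN1 passed (2.59, adjusted p = 0.0485), GDH3 and GDH2 were at -0.44 and -0.09, and GLT1 turned to 1.16. Of the markers none was called, with a median of -2.94 over 5 stationary phase markers and of 2.0 over 7 growth markers, and their part in the values was not tested. Without the library labelled stationary phase, proteinase K, buffer, replicate 2, 298 genes were called and GDH3 was among them (-3.16, adjusted p = 0.00626). In exponential lysates the differences of the 6 members tested ran from -0.68 ± 0.45 for GDH1 to 0.32 ± 0.32 for GLT1 (adjusted p = 0.992 for both).

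GDH1 minus GDH3 averaged -0.55 ± 3.54 in stationary phase buffer lysates (SD, n = 5) and 3.30 ± 1.88 in exponential buffer lysates (n = 6), a difference of -3.85 (exact permutation test, two-sided, p = 0.0455, adjusted p = 0.182 over the 4 paralog tests that could be made). Without the library labelled stationary phase, proteinase K, buffer, replicate 2, it was -5.35 (adjusted p = 0.0381). With protease the stationary phase mean was 1.35 ± 3.01 (n = 6, adjusted p = 0.444 against buffer, exact permutation test) and the exponential mean 2.64 ± 4.19 (n = 6, adjusted p = 0.738). ALT1 minus ALT2 was read on 2 stationary phase buffer arrays (mean -6.70) and 2 protease arrays (mean -0.26), where the exact permutation test cannot go below 0.333.

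**Figure D5:**
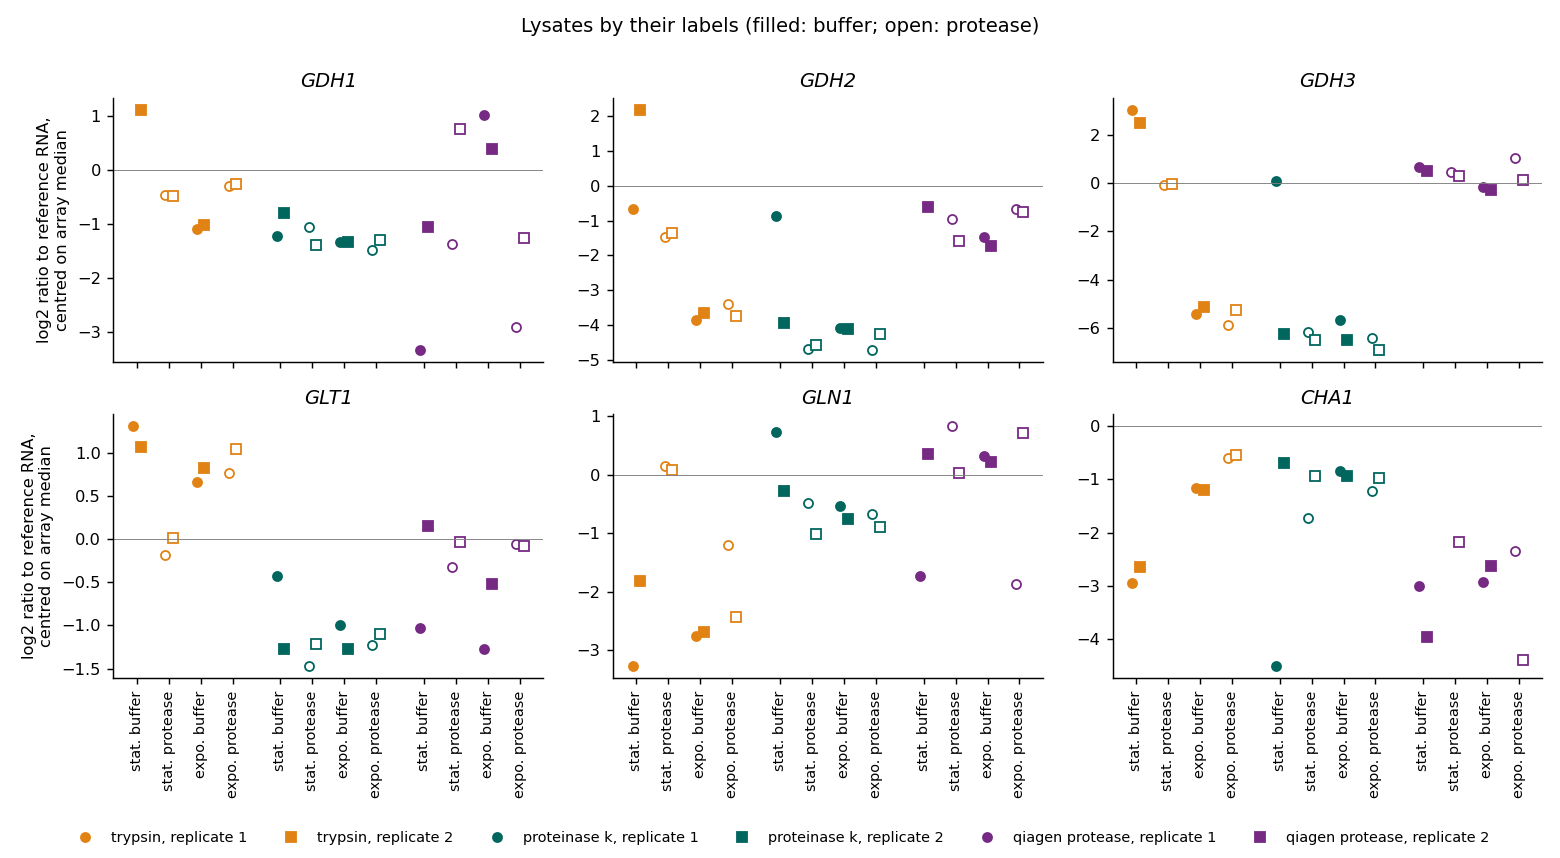
Centred log2 ratios of 6 genes on the lysate arrays, placed by their labels (filled for buffer, open for protease, circles for replicate 1 and squares for replicate 2). GDH3 of stationary phase buffer lysates stands at 3.02 and 2.49 for trypsin and at 0.10 and -6.27 for proteinase K.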

How the data were processed

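RNA of 219 samples was hybridised with a common reference on 2 array designs (143 and 76 arrays, with 5923 and 5904 probes of 1 gene; 1056 and 915 probes were unnamed here). The values of the seconds course were deposited as log2 ratios of sample (Cy5) to reference (Cy3), which per the labels were background corrected, cleared of flagged spots and scaled to added control RNA. The other sets were deposited by the authors as linear ratios, although log2 values had been assumed when the tests were chosen. Ratios of 0 or below, and those at a marker value of 100000, were set to missing and the rest taken to log2. Probes of a gene were averaged, and each array was centred on its median gene. No columns of comparisons made by the authors were used. No counts are involved, so the number of arrays limits the precision.

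The members and lists were chosen with earlier results of these data known. Arrays of a series were averaged within a window, so a course contributes 2 values per window, while T0 arrays entered singly. Genes with values on at least 80% of the arrays of a fit were tested with limma 3.58.1 (R 4.3.3), and p-values were adjusted by the Benjamini-Hochberg method over all genes. A call needed an adjusted p under 0.05 and at least 2-fold. The 28 lysate arrays, the 2 min groups included, were fitted together, and every lysate fit used the genes with values on 80% of these 28, also where only some of the arrays entered. Paralog differences in lysates were tested with exact permutation tests. The difference between courses in late minus early, the trypsin lysates alone and the seconds course without T0 replicates 4 and 5 were added after the data were seen. The named genes were the 8 members, the leading called gene of each list and the 3 genes most like each member. Scripts were tested on simulated data. Alternatives were no centring, quantile normalization, a value on every array, each array as 1 value, replicate blocks, and leaving out libraries or proteases.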

Additional observations from a re-analysis of the deposited data

Results flagged for a closer look

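GLN1 on T0 replicate 5 of the seconds course read -1.34, while the other 5 T0 arrays lay between 0.39 and 1.20. The gap was 0.681 of the range. Replicate 5 was 1 of the 2 arrays that held values of the polymerase set. Of groups without any outlier, chance marks about 1 in 20, and 24 T0 groups were checked.

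The change from early to late differed between menadione and upshift by 4.03 for CHA1 and by 1.84 for ALT2. Menadione arrays of the hours course had entered the choice of both genes, so the values are descriptions. With 1 series left out they ran from 3.60 to 4.45 for CHA1 and from 1.51 to 2.18 for ALT2.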

How the results depend on the processing

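Without centring, 98 genes were called for late against early menadione, 0 for the upshift, 417 and 398 for menadione against upshift early and late, 1541 for stationary phase against exponential lysates (45 higher, 1496 lower) and 398 for protease in stationary phase. After quantile normalization late against early menadione gave 307 and the upshift 8. With a value required on every array the counts were 222 for menadione, 279 and 274 between courses and 430 for the lysate cultures, where fewer genes were tested. With each array as 1 value the upshift gave 152 and the minutes course 1 and 3. Leaving out 1 series gave 179 to 248 for menadione, 0 to 0 for the upshift, 494 to 787 and 472 to 690 between courses, and 0 to 0 and 0 to 2 in the minutes course. Leaving out 1 library gave 161 to 1157 for the lysate cultures (161 without stationary phase, proteinase K, buffer, replicate 1), 0 to 298 for protease in stationary phase and 0 to 1 in exponential lysates. For GDH1 minus GDH3 it gave -5.35 to -2.99 between cultures, 1.05 to 3.41 for protease in stationary phase and -1.25 to 0.66 in exponential lysates. Without trypsin arrays 1 gene was called between cultures and 1 for protease in stationary phase, without Qiagen arrays 3 for the latter, and in trypsin lysates alone 1562 and 1048. The sign turned for GDH1 between lysate cultures without Qiagen arrays (1.25) and in trypsin lysates alone (2.17), for GLT1 (-1.96) and GLN1 (-2.33) there without centring, and for GDH1 under protease in stationary phase in trypsin lysates alone (-1.57). The causes were not tested.

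Same-numbered series deviated together in the courses (r = 0.705, 0.579 and 0.689), but with 2 numbers this does not establish a pairing. With the replicate number as a block 545 genes were called for menadione, 38 for the upshift, 1072 and 943 between courses, 0 and 0 in the minutes course, 851 between lysate cultures, 119 for protease in stationary phase and 0 in exponential lysates. In the Qiagen stationary phase lysates r was -0.676, and a block with those numbers crossed, added after the data were seen, gave 513, with GDH3 among them (-2.10, adjusted p = 0.0246, against 0.0574 with the numbers as labelled and 0.204 without a block).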
